A study of Mus musculus with 2 samples.

Results

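DNA repair genes encode the enzymes that find, signal and mend damaged DNA, and 56 of them were followed here among the 24354 mouse genes in the deposited table of FPKM, a level that scales fragment counts by transcript length and sequencing depth. The genes were taken by symbol from a list whose rule uses no measured value, though it was drawn up with earlier results of these data known, and every one of the 56 was found and reached an FPKM of 2 in at least 1 library. They fall into 7 classes, with 9 damage signalling genes, 18 homologous recombination genes, 5 Fanconi genes, 6 end joining genes, 3 mismatch repair genes, 9 base excision genes and 6 nucleotide excision genes. The study sequenced poly(A) RNA from differentiating mouse embryonic stem cells (ESCs) in 2 libraries. One came from control cells, which the sample labels call WT and the paper describes as homozygous for a floxed Ino80 allele without Cre (Diff-CONT). The other came from an inducible Ino80 knockout line with the same floxed allele and CreER at the ROSA26 locus (Diff-iKO). Both lines were blastocyst-derived ESCs that formed embryoid bodies, were attached on day 4, and then grew for 7 days in serum medium with BMP4 and 0.5 µM 4-OHTM, the tamoxifen compound that activates CreER. Each condition was 1 culture of 1 line, so differences between conditions, lines and cultures cannot be told apart and no test of the conditions was possible.

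Cells meet several kinds of DNA damage with separate pathways. The kinases ATM, ATR and DNA-PK sense breaks and stalled forks and pass the signal to CHK1 and CHK2. Broken ends are either copied back from a sister chromatid by homologous recombination or rejoined directly by end joining, crosslinks are unhooked by the Fanconi proteins, wrongly paired bases are removed by mismatch repair, small base lesions by base excision, and bulky lesions by nucleotide excision. Pluripotent cells divide fast and are known for strong use of homologous recombination and mismatch repair. The INO80 complex is a chromatin remodeler that slides and edits nucleosomes and has been linked to both transcription and repair.

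The library labelled Diff-CONT held about 28140182 fragments on genes and the library labelled Diff-iKO 21934744, as recovered from the steps in which low FPKM values rise. Ino80 itself had an FPKM of 8.90 in the first and 10.3 in the second. The targeted gene was thus not lower at the level of the whole gene in the library labelled Diff-iKO. An FPKM per gene does not show whether a deleted exon is missing, so this value does not check the labels. The cultures also differed in makeup. The summed FPKM of 6 pluripotency markers was 391 and 2568, with all 6 higher in the library labelled Diff-iKO. That of 6 visceral endoderm markers was 204 and 3.85, with all 6 lower. Blood markers summed to 97.5 and 1.01, with Hbb-bh1 listed at 0 in the library labelled Diff-iKO, and cardiomyocyte markers to 29.2 and 8.18. Mesenchyme markers summed to 2255 and 2162, with Col1a1 higher (880 and 1199) and 7 of 8 lower, among them Vim at 563 and 560. Endothelial markers, with 5 of 6 lower and Pecam1 higher, summed to 52.6 and 67.0. Trophoblast markers went both ways, with Prl3d1 at 0.484 and 6.19 and Cdx2 at 3.996 and 0.705, and summed to 6.17 and 11.5, and germ cell markers to 5.35 and 13.2. In such bulk RNA, fewer cells of a type and less RNA per cell cannot be told apart, and the part of these differences in the values below was not tested.

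Throughout, pairs of FPKM values give the library labelled Diff-CONT first and the library labelled Diff-iKO second, and a log2 ratio is the second over the first, without a pseudocount. Higher and lower refer to the library labelled Diff-iKO. Intervals are exact 95% counting intervals, which cover the sampling of fragments only. The cut-off was FC ≥ 2 with FPKM ≥ 2 in at least 1 library.

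As a group, the repair genes differed little between the libraries. The median log2 ratio of the 56 genes was 0.044, beside -0.0077 over the 13145 genes of any function whose mean FPKM reached 1, and the median size of the log2 ratio, whatever its sign, was 0.23 beside 0.38. Of the 56 genes, 31 were higher and 25 lower, beside 6487 higher and 6658 lower of those 13145 genes. The split of the 56 turned to 25 higher and 31 lower when both libraries were scaled to the same sum of FPKM. The median was then -0.101 over the 13145 genes and -0.049 over the 56. That scaling moves every log2 ratio by -0.094 and took 2 genes of nucleotide excision and 1 gene each of homologous recombination, the Fanconi class, end joining and base excision from above 0 to below it. Only 1 gene was past the cut-off upward, where the background over all 12376 genes that reached the FPKM minimum was 6.73%. Downward 3 genes were, with a background of 8.39%. In either direction these 4 genes are 7.14% of the list, and the background was 15.1%. With an FPKM of 2 required in both libraries the same counts stood beside backgrounds of 4.37% upward, 5.1% downward and 9.47% in either direction. At a fold of 1.5 or more, 3 repair genes were higher (background 14.9%) and 4 lower (background 17.6%), together 7 genes beside a background of 32.5%, so 49 of the 56 stayed within 1.5-fold. Counting error was small enough to resolve many of these small differences, since the interval lay above 0 for 20 genes (background 38.8%) and below 0 for 15 (background 39.1%), and included 0 for 21. Together these 35 genes are 62.5% of the list, beside 77.9% of 12282 genes with an interval and an FPKM of 2 in at least 1 library. With libraries scaled to the same sum, which was applied to the intervals after seeing the data, they lay above 0 for 14 genes and below 0 for 21. Atm, Chek2, Bard1, Rad50, Lig4 and Msh3 were then no longer higher beyond counting error, and the intervals of Atr, Atrip, Rnf8, Rad54l, Exo1 and Xrcc1 came to lie below 0.

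**Figure D1:**
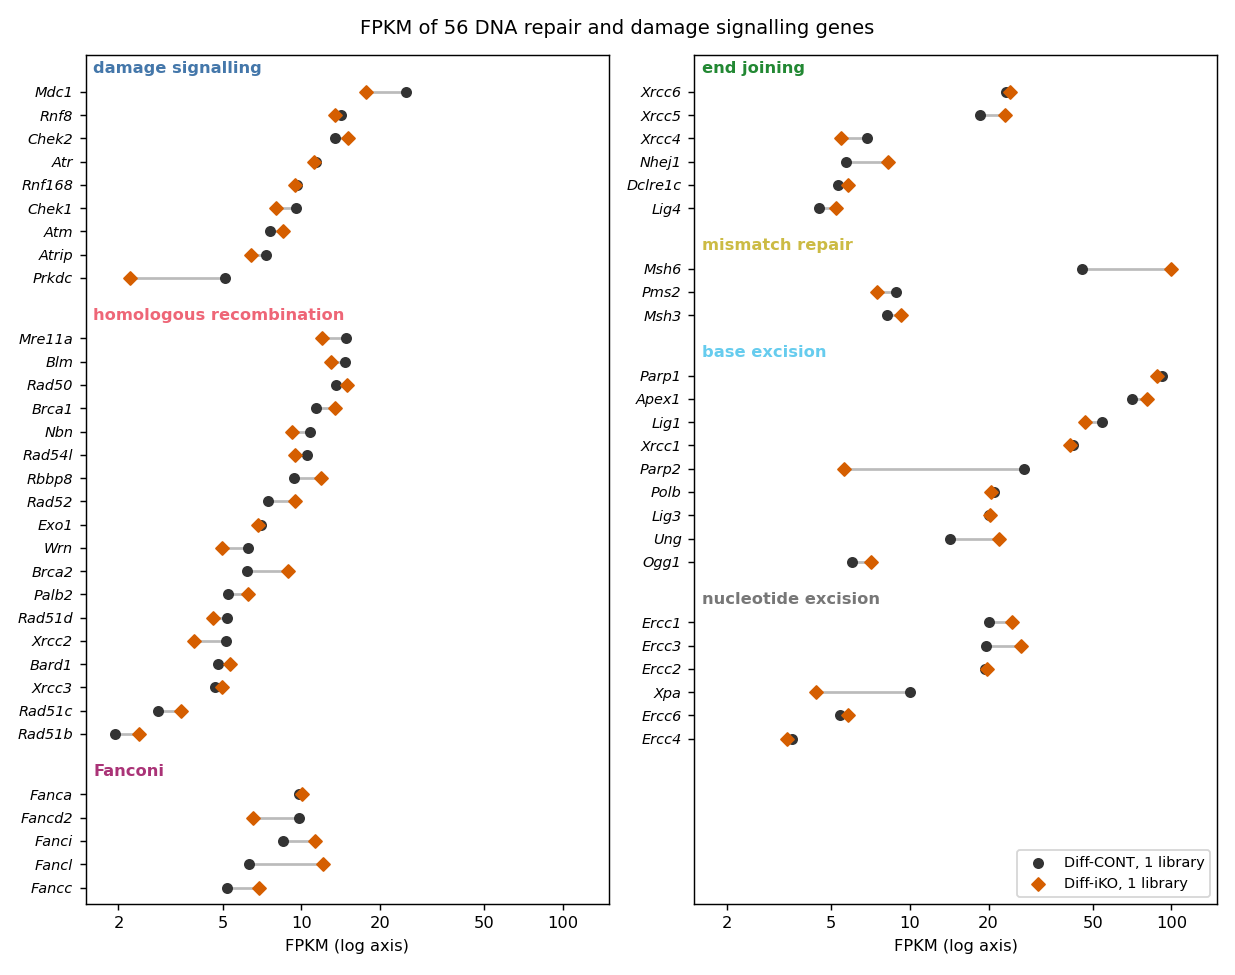
FPKM of each of the 56 genes on a log axis, grouped by pathway, with a circle for the Diff-CONT library and a diamond for the Diff-iKO library (1 library each, no error bars). Most pairs of symbols nearly touch, while Parp2 spans from 27.3 to 5.59, Prkdc from 5.09 to 2.21, Xpa from 10.1 to 4.39 and Msh6 from 45.6 to 99.3.

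The 4 genes past the cut-off came from 4 different classes. Parp2, which encodes the second nuclear poly(ADP-ribose) polymerase activated by breaks in DNA, was lower, at an FPKM of 27.3 and 5.59. The library labelled Diff-iKO kept 20.4% of the level in the other library, on 213 against 1395 fragments. Its log2 ratio of -2.29 (interval -2.50 to -2.08) lay at percentile 1.32 of all genes whose mean FPKM reached 1, and Parp2 is on chromosome 14 from 50807841 to 50821301 of GRCm38. Prkdc, the catalytic subunit of DNA-PK, which holds broken ends together for joining, was lower, at 5.09 and 2.21 (log2 ratio -1.21, interval -1.34 to -1.07, chromosome 16 from 15637866 to 15842235), and its log2 ratio was -0.93 with a pseudocount of 1. Xpa, the damage verification factor of nucleotide excision repair on chromosome 4 from 46155347 to 46196311, was lower, at 10.1 and 4.39. Its log2 ratio of -1.19 rested on 230 and 75 fragments, and its interval of -1.59 to -0.81 includes the cut-off. Msh6, which recognises mismatched bases, was the single gene past the cut-off upward. It lies on chromosome 17 from 87975062 to 87990892, and its FPKM of 45.6 and 99.3 gave a log2 ratio of 1.12 (interval 1.07 to 1.17). Msh6 was the repair gene with the highest FPKM of the 56 in the library labelled Diff-iKO, while in the library labelled Diff-CONT that place was held by Parp1 at 92.3.

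Just outside the cut-off was Fancl, the ubiquitin ligase of the Fanconi pathway, at an FPKM of 6.32 and 12.1. The log2 ratio was 0.94, and the cut-off lies within its interval of 0.67 to 1.22. Beyond 1.5-fold there were also Ung (14.3 and 21.9), the glycosylase that removes uracil from DNA, which was within it at a log2 ratio of 0.53 with libraries scaled to the same sum, and Fancd2 (9.79 and 6.53), whose fold sits on that limit. The next genes inside 1.5-fold were Nhej1 with a log2 ratio of 0.54, Brca2 with 0.53 and Mdc1 with -0.51.

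**Figure D2:**
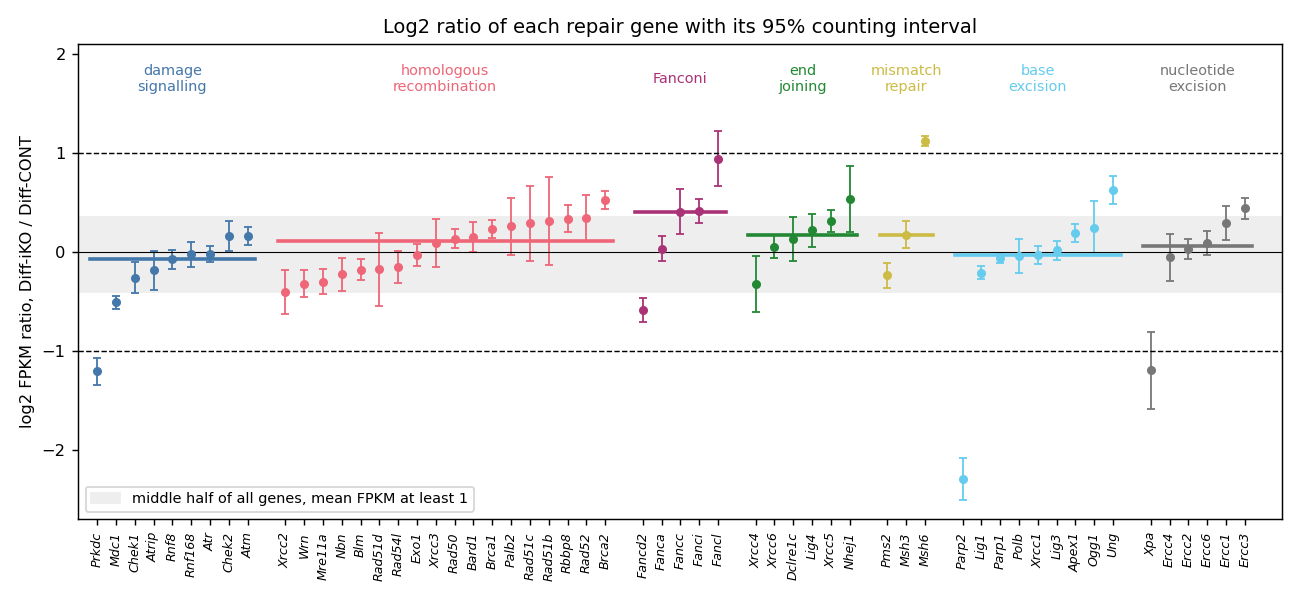
Log2 FPKM ratio of the library labelled Diff-iKO over the library labelled Diff-CONT for each gene, with its 95% counting interval, sorted within pathways. Coloured bars are pathway medians, dashed lines mark a 2-fold difference and the grey band is the interquartile range of all genes. Parp2, Prkdc and Xpa lie below the lower dashed line and Msh6 above the upper one, while 49 of the 56 genes stay within 1.5-fold.

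Promoter letters are shown for Parp2, Xpa and Msh6, past the cut-off, and for Fancl, next to it, because they differ from each other in what they hold. Prkdc had no entry in the promoter table. They are 250 bases upstream of the RefSeq start site, 5′ to 3′ on the strand of the gene, from the RefSeq promoter table for GRCm38.p6. The windows are chr14:50807666-50807915 on the plus strand for Parp2, chr4:46196312-46196561 on the minus strand for Xpa, chr17:87974800-87975049 on the plus strand for Msh6 and chr11:26386834-26387083 on the plus strand for Fancl. Capitals mark matches on either strand to the motifs of E2F (TTTCCCGC or TTTGGCGC), NF-Y (CCAAT), CHR (TTTGAA), NRF1 (GCATGCGC) and YY1 (AAGATGGC), and no matches overlap. RefSeq and GENCODE place some starts apart. The whole Fancl window lies inside the GENCODE model of Fancl, which starts further upstream, as do the last 75 bases of the Parp2 window inside that of Parp2. The first 102 bases of the Parp2 window also lie in Rpph1 and 67 bases of it in Ccnb1ip1, both read from the other strand.
Parp2: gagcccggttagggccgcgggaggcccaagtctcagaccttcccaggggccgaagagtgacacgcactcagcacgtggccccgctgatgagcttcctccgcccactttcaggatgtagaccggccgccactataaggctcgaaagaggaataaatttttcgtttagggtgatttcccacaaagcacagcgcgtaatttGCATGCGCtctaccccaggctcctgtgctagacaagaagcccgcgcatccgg
Xpa: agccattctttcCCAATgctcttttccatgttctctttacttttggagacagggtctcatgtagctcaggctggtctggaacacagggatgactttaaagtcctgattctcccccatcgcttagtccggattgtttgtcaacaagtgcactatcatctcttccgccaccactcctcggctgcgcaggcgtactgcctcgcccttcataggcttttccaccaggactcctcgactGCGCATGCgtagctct
Msh6: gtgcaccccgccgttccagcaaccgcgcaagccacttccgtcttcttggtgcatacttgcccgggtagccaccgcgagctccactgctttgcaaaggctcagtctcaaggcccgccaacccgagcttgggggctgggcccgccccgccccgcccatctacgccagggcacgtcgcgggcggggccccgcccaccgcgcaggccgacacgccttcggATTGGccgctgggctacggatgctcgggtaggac
Fancl: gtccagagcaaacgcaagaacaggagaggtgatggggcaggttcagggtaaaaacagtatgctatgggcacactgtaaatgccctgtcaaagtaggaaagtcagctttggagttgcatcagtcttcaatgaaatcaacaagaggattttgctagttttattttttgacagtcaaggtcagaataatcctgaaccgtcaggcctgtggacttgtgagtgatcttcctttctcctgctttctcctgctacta

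Parp2 and Xpa, both lower, each held the NRF1 letters, beginning 52 bases and 16 bases before the start. Msh6 held an inverted NF-Y match 34 bases before the start, and an E2F match began at base 16 after it, outside the printed window. The Fancl window, which lies inside the GENCODE model of the gene, held 0 of the motifs and 2 CpG sites, beside 27 in that of Msh6. The promoter table matched 45 of the 56 genes, and in the windows of 300 bases around the start the E2F letters stood in 7 of them (15.6%), beside 3.15% of the 9424 matched genes that reached the FPKM minimum and 1.63% of all 27025 promoters. For NRF1 the shares were 17.8%, 5.62% and 2.80%, and for NF-Y 55.6%, 38.9% and 37.9%. CHR letters stood in 4.44%, 11.2% and 18.1%, and YY1 letters in 0 of 45, 4.86% and 2.88%. The 8 genes with NRF1 letters did not share a direction, since besides Parp2 and Xpa they were Atm, Xrcc5, Lig4, Fanci and Ercc6, which were higher, and Lig1, which was lower. Their median log2 ratio was 0.13, beside 0.092 for the other matched genes. For the 7 genes with E2F letters, which were Chek2, Mdc1, Brca2, Bard1, Xrcc6, Msh3 and Msh6, it was 0.16, beside 0.063. A match is a run of letters and not a measured binding site.

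The 9 damage signalling genes had a median log2 ratio of -0.075, with 7 of them lower. The apical kinases parted from one another. Atm, the kinase that answers broken ends, was at an FPKM of 7.61 and 8.52 (log2 ratio 0.16), and Atr, the kinase of stalled forks, at 11.4 and 11.2 (-0.020), while Prkdc, described above, was 2.31-fold lower. Genes of their partners and effectors lay within 1.5-fold, though Mdc1 did not with libraries scaled to the same sum (log2 ratio -0.60). Atrip, which binds ATR, was at 7.33 and 6.45 with an interval that includes 0. Chek1, the ATR target that halts the cycle, was lower beyond counting error at 9.55 and 7.99, and Chek2, the ATM target, higher beyond it at 13.5 and 15.1. Mdc1, the scaffold that spreads the signal along chromatin, had the highest level of the class and was lower beyond counting error, at 25.1 and 17.6 (log2 ratio -0.51, interval -0.57 to -0.44). The ubiquitin ligase genes that act after it, Rnf8 (14.2 and 13.4) and Rnf168 (9.61 and 9.46), both had intervals that include 0. With libraries scaled to the same sum, the intervals of Atm and Chek2 included 0 and those of Atr, Atrip and Rnf8 lay below it.

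Homologous recombination was the largest class, and 0 of its 18 genes were past the cut-off or beyond 1.5-fold. The median log2 ratio was 0.11, with a range from -0.40 for Xrcc2 to 0.53 for Brca2, and 10 genes were higher. The BRCA genes were on the higher side. Brca1, a ubiquitin ligase that promotes resection of ends, was at 11.4 and 13.4, its partner Bard1 at 4.82 and 5.36, Palb2, the bridge to BRCA2, at 5.23 and 6.26, and Brca2, a mediator of strand exchange, at 6.19 and 8.93. Of these, the interval excluded 0 for Brca1, Bard1 and Brca2. That of Bard1 included 0 with libraries scaled to the same sum. It also did with the median log2 ratio of genes at FPKM ≥ 2 in both libraries set to 0. The resection genes were divided. Rbbp8, which encodes CtIP, was at 9.42 and 11.9 and Rad50 at 13.6 and 14.9, both higher beyond counting error, while Mre11a (14.8 and 11.98) and Nbn (10.8 and 9.21), whose proteins form a complex with RAD50, were lower beyond it. With libraries scaled to the same sum the interval of Rad50 included 0. Exo1, the exonuclease of long resection, was at 7.00 and 6.85, and the helicase genes Blm (14.7 and 13.0) and Wrn (6.23 and 4.99) were lower beyond counting error.

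The genes Rad51b, Rad51c, Rad51d, Xrcc2 and Xrcc3 encode related proteins that assist strand exchange, and they were among the genes of the class with the lowest levels. Rad51b was at an FPKM of 1.94 and 2.40, the only one of the 56 genes under 2 in either library, and rested on 91 and 84 fragments. Rad51c was at 2.83 and 3.46, Rad51d at 5.19 and 4.602 and Xrcc3 at 4.68 and 4.99, each with an interval that includes 0. Xrcc2, at 5.15 and 3.89, was the one of them whose interval lay below 0. Rad52, an annealing factor, was higher at 7.48 and 9.502, and Rad54l, a motor of strand exchange, was at 10.5 and 9.47.

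The Fanconi genes had the highest class median, 0.41, and 4 of the 5 were higher, or 3 of 5 with libraries scaled to the same sum. The core complex genes did not differ alike. Fancl is described above, Fancc was at an FPKM of 5.18 and 6.87 (log2 ratio 0.41, interval 0.18 to 0.63), and Fanca was at 9.80 and 10.04 with an interval that includes 0. Fancd2 and Fanci encode the pair of proteins that the core complex ubiquitinates together. They went opposite ways, with Fancd2 at 9.79 and 6.53 (-0.59, interval -0.71 to -0.46) and Fanci at 8.48 and 11.3 (0.42, interval 0.30 to 0.54).

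Of the 6 end joining genes, 5 were higher, or 4 with libraries scaled to the same sum, with a median log2 ratio of 0.17 and none beyond 1.5-fold. Xrcc5 and Xrcc6, which encode the Ku subunits that cap broken ends, had the highest levels, at 18.6 and 23.1 and at 23.3 and 24.2. Nhej1, which encodes XLF, a factor that aligns ends for the ligase, was at 5.71 and 8.28 (0.54, interval 0.21 to 0.87) on 147 and 160 fragments. Lig4, the ligase, was at 4.50 and 5.23 and the nuclease gene Dclre1c, which encodes Artemis, at 5.32 and 5.82. Xrcc4, the cofactor of LIG4, was the gene on the lower side, at 6.83 and 5.47. Thus of the DNA-PK holoenzyme the catalytic subunit gene Prkdc was past the cut-off and the Ku genes were not.

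Mismatch repair was represented by 3 genes with unlike values. Msh6 had a level 5.58 times that of Msh3 in the library labelled Diff-CONT and 10.8 times in the other. Msh3, whose protein reads larger loops, was at 8.18 and 9.23. Pms2, which encodes an endonuclease of the pathway, was lower beyond counting error, at 8.85 and 7.51.

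The base excision class held Parp1, Apex1 and Lig1, the genes with the highest FPKM of the 56 in the library labelled Diff-CONT, and its median log2 ratio was -0.029. Parp1, the main poly(ADP-ribose) polymerase, was at an FPKM of 92.3 and 88.3, Apex1, the endonuclease that cuts at lost bases, at 70.4 and 80.5, Lig1, the replicative ligase, at 54.2 and 46.8, and the scaffold gene Xrcc1 at 41.9 and 41.1. These differences were all within 1.5-fold. Lig3, the ligase bound to XRCC1, was at 20.05 and 20.3 and Polb, the gap-filling polymerase, at 21.0 and 20.4, both with intervals that include 0. Parp2 had a level above both of these in the library labelled Diff-CONT and below every other gene of the class in the library labelled Diff-iKO, where the next lowest was Ogg1, the glycosylase for oxidised guanine, at 7.12. Parp1 was therefore 3.37 times Parp2 in the first library and 15.8 times in the second. Ung was higher, with a log2 ratio of 0.62 (interval 0.48 to 0.76).

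Among the 6 nucleotide excision genes the median log2 ratio was 0.060, or -0.034 with libraries scaled to the same sum, and Xpa stood apart from the other 5. Ercc2 and Ercc3 encode the helicases of the repair and transcription factor TFIIH. They were at an FPKM of 19.4 and 19.8 and of 19.6 and 26.6, the second of them higher beyond counting error (log2 ratio 0.44, interval 0.34 to 0.55). Ercc1 was at 20.1 and 24.5 and Ercc4, its partner in the nuclease that XPA recruits, at 3.54 and 3.404. Ercc6, which couples repair to stalled transcription, was at 5.43 and 5.78. The level of Xpa lay between those of Ercc6 and Ercc2 in the first library and between those of Ercc4 and Ercc6 in the second.

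Genes whose proteins work together or stand in for each other were set side by side in 20 pairs. The median difference between the log2 ratios of a pair was 0.35, whatever its sign, and 13 pairs differed by under 0.5. Differences between genes that are not partners were not computed, so no background stands beside these values. In 3 pairs the log2 ratios differed by at least 1, namely Parp1 with Parp2 (2.23), Prkdc with Dclre1c (-1.34) and Fancd2 with Fanci (-1.002). Msh6 with Msh3 followed (0.95), and then Xrcc4 with Nhej1 (-0.86). The closest pairs were Rad51b with Rad51c (0.023), Xrcc1 with Lig3 (-0.049) and Rnf8 with Rnf168 (-0.051). The counting intervals of Rad51b (-0.13 to 0.75) and Rad51c (-0.095 to 0.67) are far wider than the gap between them. With 1 library per condition the differences within pairs have no replicate check.

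**Figure D3:**
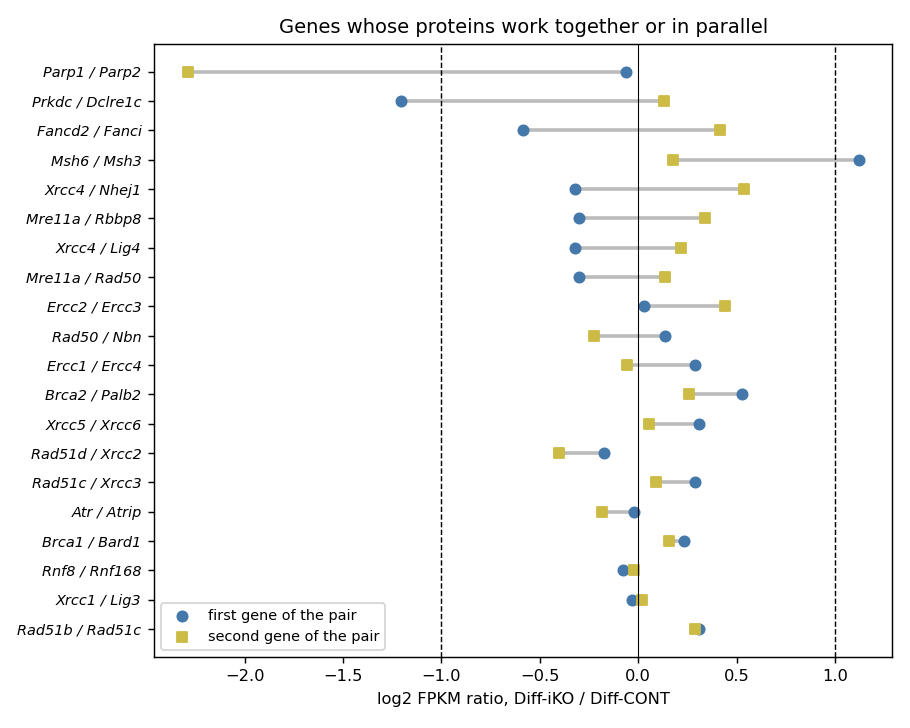
Log2 FPKM ratios, library labelled Diff-iKO over library labelled Diff-CONT, of the first gene (circle) and the second gene (square) of 20 pairs, sorted by the gap between them. Dashed lines mark a 2-fold difference. The gap is widest for Parp1 and Parp2, at 2.23, and 13 pairs have a gap under 0.5.

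A further 97 genes of these pathways, of translesion synthesis and of direct reversal gave a like picture. Their median log2 ratio was 0.035 over the 95 whose mean FPKM reached 1, and the median size was 0.23. Past the cut-off upward were Ube2a, the X-linked ubiquitin-conjugating gene that works with RAD18, at an FPKM of 18.3 and 56.05 (log2 ratio 1.61, interval 1.41 to 1.82), and Alkbh2, a dioxygenase that strips alkyl groups from bases, at 6.90 and 14.0 (1.02, interval 0.74 to 1.296). Alkbh2 was under the cut-off, at 0.92, with a pseudocount of 1 and with libraries scaled to the same sum. The glycosylase gene Neil3 was past it downward, at 7.64 and 3.08 (-1.31, interval -1.59 to -1.04). Direct reversal genes were on the higher side in 3 of 3 cases, with Mgmt, which removes methyl groups from guanine, at 15.2 and 26.9 and Alkbh3 at 11.4 and 12.3, the latter with an interval that includes 0. Alkbh2 starts 2168 bases from Ung on the opposite strand, and these neighbours were both higher. By pathway, 7 of 10 other Fanconi genes were higher, or 6 with libraries scaled to the same sum. In damage signalling 7 of 12 were higher, or 6 with that scaling, with a median of 0.11, while 7 of the 9 listed ones were lower. Of the other genes of homologous recombination 11 of 17 were higher, or 6 with that scaling, of base excision 4 of 13, or 3, and of nucleotide excision 8 of 14, or 7. The other mismatch repair genes are not reported here. In end joining, where 5 of the 6 listed genes were higher, the other genes stood with 6 of 8 lower, or 7 with libraries scaled to the same sum, and a median of -0.34, and the lower ones were Aplf, Polq, Aptx, Tdp1, Polm and Tdp2. In damage signalling, Trp53bp1, which favours end joining, was lower (20.2 and 11.8) and Rif1, which acts with it, higher (24.3 and 41.5), neither past the cut-off.

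The most abundant of these other genes differed little in most pathways. Ddb1, a subunit of the ligase that finds bulky lesions, had the highest FPKM, at 408 and 446, followed in nucleotide excision by Rad23b (73.7 and 69.6) and Gtf2h5 (31.5 and 32.2). In homologous recombination Swi5 was at 164 and 135 and Sfr1 at 96.1 and 100.9, whose proteins form a complex. In damage signalling H2afx, the histone variant that marks breaks, was at 60.2 and 70.5, Topbp1, the activator of ATR, at 45.3 and 45.1 and Tipin, a fork protection gene, at 43.8 and 45.9. Each of these 8 genes stayed within 1.5-fold, as did Fen1, the flap nuclease (23.1 and 22.3), Parg (13.6 and 17.6) and Parp3 (11.3 and 16.2) in base excision. In end joining, Tdp2 (28.7 and 24.8) and Tdp1 (19.2 and 13.9), which clear trapped topoisomerases from ends, were lower beyond counting error. Among Fanconi genes Ube2t was at 14.5 and 15.4, Fance at 13.7 and 10.3 and Fancg at 7.66 and 9.52. In translesion synthesis Ube2b, the paralog of Ube2a, was at 44.4 and 48.2, so the ratio of 3.06 for Ube2a was not shared, and Rev1, the scaffold of the bypass polymerases, was at 20.6 and 32.04.

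**Figure D4:**
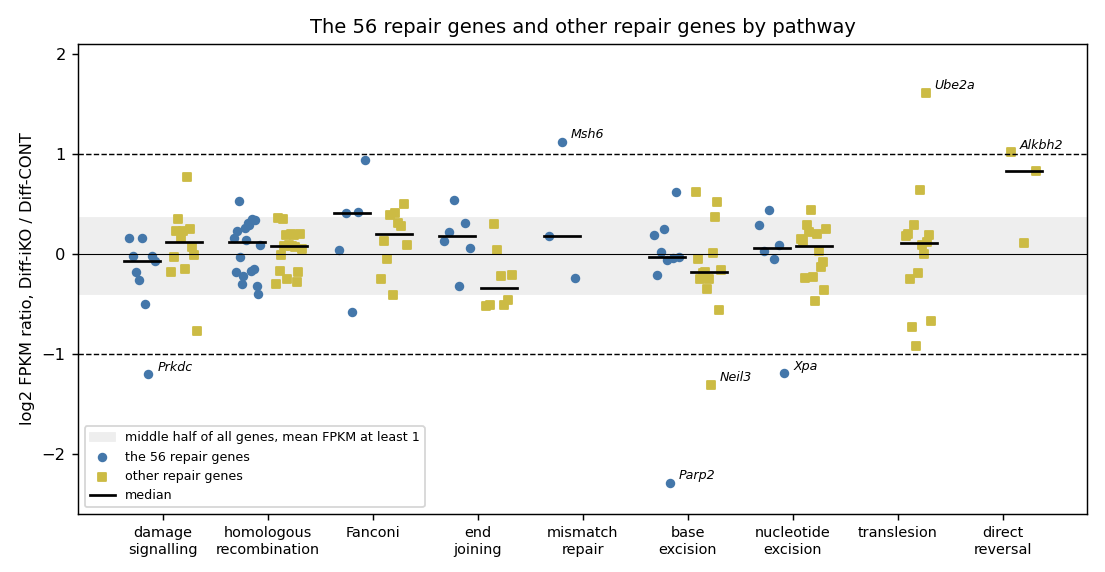
Log2 FPKM ratio, library labelled Diff-iKO over library labelled Diff-CONT, for the 56 genes (circles) and for other repair genes (squares) with a mean FPKM of at least 1, by pathway, with medians as black bars and the interquartile range of all genes as a grey band. Named points are the 4 genes of the 56 and other genes past the 2-fold lines, among them Ube2a at 1.61 and Neil3 at -1.31, and no squares are drawn for mismatch repair.

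Cell cycle phase and the p53 response both bear on repair genes, so lists for each were read beside them. The 13 repair genes linked to S phase had a median log2 ratio of 0.034 and the other 43 had 0.054, and Msh6 was the single S phase gene past the cut-off. The 19 proliferation genes had a median of -0.16, with 14 lower and 0 past the cut-off, and the most abundant were Pcna (107.7 and 94.2), Mcm7 (98.4 and 109.7) and Top2a (107.5 and 90.7). Of the 15 genes of the p53 response, 14 were higher, with a median of 0.80, and Cdkn1a (78.1 and 157) and Eda2r (14.9 and 37.0) were past the cut-off, Cdkn1a with a log2 ratio of 1.008 that was 0.999 with a pseudocount of 1 and 0.91 with libraries scaled to the same sum. Bax was at 108.5 and 185 and Ccng1 at 94.4 and 175. The genes of that list that are also among the 97 other repair genes were each within 1.5-fold. They were Ddb2 at 9.56 and 8.09, Xpc at 10.1 and 12.01 and Polk at 13.7 and 16.8. Rrm2b, which is in neither list of repair genes, was at 2.73 and 3.60. The one gene of this list on the lower side was Ddb2, with a log2 ratio of -0.24 (interval -0.47 to -0.0063).

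The genes around the 4 repair genes past the cut-off were looked up after the values of those 4 had been seen. Distances here are between GENCODE starts. Within 150 kb of Parp2, 7 other genes reached the FPKM minimum, and the repair gene Apex1, which starts 117 kb away, is one of them. The log2 ratio of 6 of them was between -0.42 and 0.38. Rpph1, the RNase P RNA gene that starts 74 bases from Parp2 on the other strand, was at 3.05 and 1.23, past the cut-off, but its interval of -3.399 to 0.41 includes 0. Mcm4, a subunit of the replicative helicase, starts 466 bases from Prkdc on the other strand and was at 48.6 and 46.1 (-0.074). Near Xpa, Ncbp1 was at 36.3 and 45.5 and Tstd2 at 12.7 and 11.5, and near Msh6 the gene Fbxo11 was at 30.8 and 25.7. Over all 56 genes, 18 had a divergent gene that starts within 1000 bases and reached the FPKM minimum, and in 8 of these pairs both genes lay on the same side of 0. Fancd2 and its neighbour Emc3, whose starts are 30 bases apart, were lower and higher (Emc3 at 31.5 and 44.7).

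**Figure D5:**
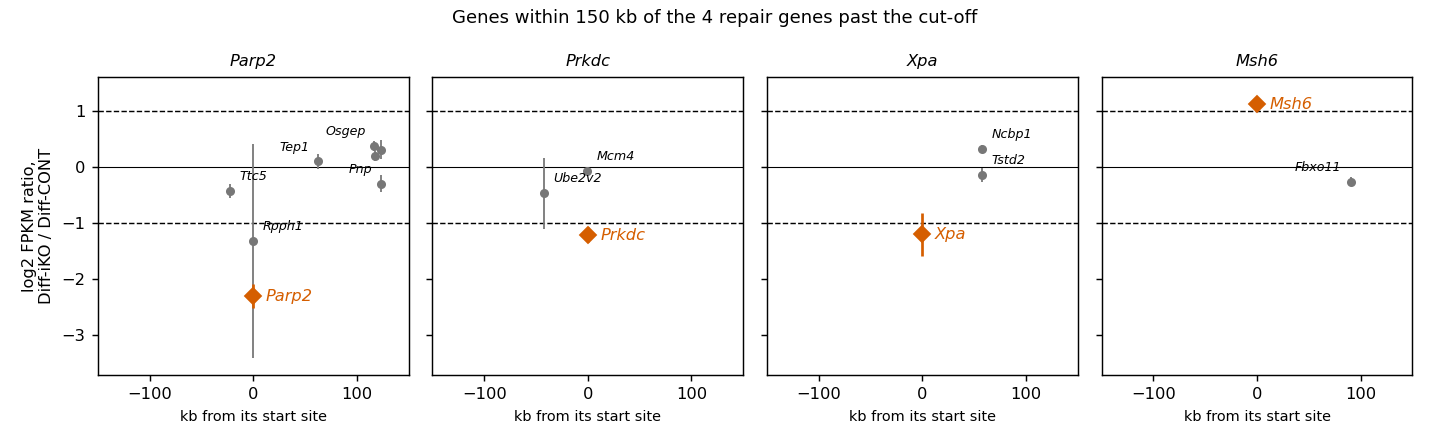
Log2 FPKM ratio with its 95% counting interval of the 4 repair genes past the cut-off (diamonds) and of genes within 150 kb that reached an FPKM of 2 (circles), by distance of their start sites along the strand of the repair gene. Apart from Rpph1, whose interval runs from -3.399 to 0.41, the neighbours lie between -0.46 and 0.38.

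Transcript length, GC content and level told little about the log2 ratios. Across the 56 genes Pearson's r was -0.087 with log2 transcript length, 0.066 with GC content and 0.10 with log2 mean FPKM, where the genes share the same pair of libraries. Without the 4 genes past the cut-off, r with length was -0.30 (n = 52), beside -0.099 over 13062 genes. The repair genes had a median length of 3228 nucleotides, a median GC content of 47.2% and a median of mean FPKM of 9.38, where all genes whose mean FPKM reached 1 had 2681, 51.0% and 12.1.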

How the data were processed

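Poly(A) RNA of 2 samples was assigned to groups by the sample labels, 1 library each. FPKM values were deposited by the authors, who used STAR 2.7.9a on mm10 and Cuffnorm of Cufflinks 2.2.1 per the submitters' processing notes. The gene annotation and strand setting are not given in the sources used here, so overlapping genes such as Rpph1 are uncertain. Columns were matched to samples by name, and 0 other columns of values were present. The genes and lists were chosen with earlier results of these data known.

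Log2 ratios were computed without a pseudocount, and 1 library per condition allows no test of conditions. Medians took genes whose mean FPKM reached 1. Named genes were all 56 genes, those of other lists past the cut-off or among the 3 most abundant of a list, and Ino80, and some genes of the other lists are not reported here. Other genes were named after their values were seen, as were the neighbours and the genes that show how a list divides.

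Fragments were recovered from FPKM steps in genes with a single RefSeq transcript whose length was 1000 nucleotides or more. Of low values, 87.4% (Diff-CONT) and 87.8% (Diff-iKO) lay within 0.2 of a whole multiple, against 40% by chance. Fragments per gene used the shortest RefSeq-matched transcript of GENCODE vM21 (GRCm38), which makes intervals approximate for genes with several transcripts. The intervals (exact Clopper-Pearson, 95%) cover counting error only. By symbol 23315 genes matched, by synonym 661, and 378 did not. The steps were tested on simulated data. Software was scipy 1.17.1, pandas 2.3.3 and numpy 2.4.6 under Python 3.11.15, with plots from matplotlib 3.10.9. Alternatives were pseudocounts, FPKM filters, fold minimums and 3 scalings.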

Additional observations from a re-analysis of the deposited data

How the results depend on the processing

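Counts of repair genes past the cut-off moved with the fold minimum. At 1.5, 3 genes were higher, and at 4, 0 were higher and 1 (Parp2) lower. Lower genes numbered 4 at 1.5 and 2 with a pseudocount of 1, where Prkdc had a log2 ratio of -0.93. Parp2 (-2.38 to -2.10), Xpa (-1.29 to -1.03) and Msh6 (1.03 to 1.13) kept a 2-fold difference under both pseudocounts and all 3 scalings, and Fancl (0.84 to 0.95) stayed under it. The other FPKM filters and the scalings left the counts at 1 higher and 3 lower. Equal-sum scaling shifted log2 ratios by -0.094, which took the median of the 56 genes from 0.044 to -0.049 and that of nucleotide excision from 0.060 to -0.034. No paired analysis was possible because each condition had 1 library, and for the same reason no replicate could be left out. Counting intervals were widest for Rad51b, Xpa, Rad51c and Rad51d, while the variation between cultures is unknown for every gene.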
